A study of Homo sapiens with 12 samples.

Results

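Vehicle-treated SUDHL6 cells sampled at 96 h were compared with vehicle-treated SUDHL6 cells sampled at 24 h, which asks how the control cells of the study differ between the early and the late sampling time. SUDHL6 is an established lymphoma cell line of the germinal centre subtype of diffuse large B-cell lymphoma, and all libraries come from that one line. The comparison uses 6 of the 12 samples of the series: 3 that received vehicle, which is 0.01% DMSO, until 24 h and 3 that received it until 96 h. No library of the drug-treated cells, which received a PRMT5 inhibitor, enters the comparison. Samples were chosen by their labelled treatment and time, and the 2 times were joined by gene symbol. The authors deposited each time as a table of its own, so time in culture and deposited table are the same split and cannot be told apart in any value given here. The labels do not say whether the cultures were seeded together, whether medium was renewed or at what density cells were harvested. Whether the 3 samples of a group are separate cultures is likewise not stated, so p-values here measure only how far these samples scatter, which may be technical.

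Several gene programmes are known to move with growth state in cultured B-cell lymphoma lines. MYC drives ribosome production and growth, and E2F factors and the DREAM and MuvB complexes time the genes of S phase and of mitosis. The tumour suppressor p53 switches on cell cycle brakes and death genes such as CDKN1A and BBC3 after stress, while the kinases GCN2 and PERK act through ATF4 to switch on amino acid supply. Transcript levels in bulk RNA are averages over cells, so fewer cells in a state and less of its RNA per cell cannot be told apart.

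The 3 libraries of 24 h held 53.6, 49.9 and 55.5 M counts (M, mega), and those of 96 h held 547.9, 51.8 and 48.5 M. Replicate 1 of 96 h was thus 10.6 times as deep as the median of the other libraries. No gene took more than 1.72% of a library's counts. The 9 B-cell markers were detected in every library. None of 26 markers of T cells, NK cells, myeloid cells, blood, fibroblasts, epithelium or endothelium passed the expression filter. Their summed level was 0.630 to 0.802 CPM (counts scaled to 1 M counts per library) at 24 h and 0.676 to 1.52 CPM at 96 h. In each library of 24 h 18 of the 26 were at 0, though not the same 18. In replicates 1 to 3 of 96 h, 10, 18 and 15 were at 0. The highest was COL1A1, at 0.093, 0.040 and 0.036 CPM at 24 h and 0.515, 0.174 and 0.454 CPM at 96 h. Replicate 2 of 96 h stood apart from its group. Its counts differed from those of replicates 1 and 3 with a chi-square per degree of freedom of 24.6 and 16.6, against 2.97 between replicates 1 and 3 and 2.60 to 3.27 within 24 h. The first principal component, with 82.8% of the variance, separated the times, and the second, with 9.13%, separated that library from the rest. Several results that lean on it are given with and without it. Others, such as RASGRP2 and KIF21B, are given from the fit of all 6 libraries only.

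Relative to the rest of a library, transcripts of ASS1, of mitotic genes and of most integrated stress response genes were higher at 96 h. Those of a set of p53 target genes, of ribosome biogenesis genes, of DNA replication genes and of most heat shock genes were lower. Of 23368 gene symbols in both tables, 11540 reached at least 1 CPM in at least 3 of the 6 libraries and were tested. In edgeR's quasi-likelihood test with Benjamini-Hochberg adjustment, 6943 of them passed an adjusted p of 0.05 and are referred to as called. This is 60.2% of the genes tested. Higher at 96 h were 3520 genes, which is 30.5%, and lower were 3423, which is 29.7%. Most of these changes were small: the median size was 0.28 on the log2 scale and 58.1% of the called genes moved by less than 1.25-fold. Only 212 genes, 1.84% of those tested, were called and moved 2-fold or more, 184 upward and 28 downward. Some of these, such as IFIT2, passed the filter only through the libraries of 24 h or only through those of 96 h, which fixed their direction. The CPM of the 3 libraries of one time and the 3 of the other did not overlap for 65.5% of the genes tested. The median log2 fold change (96 h over 24 h) of all genes tested was 0.01. Across genes, which are not independent replicates, the log2 fold change fell with expression level: in 5 equal groups of genes by average level, its median was 0.17 in the lowest and -0.06 in the highest.

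**Figure D1:**
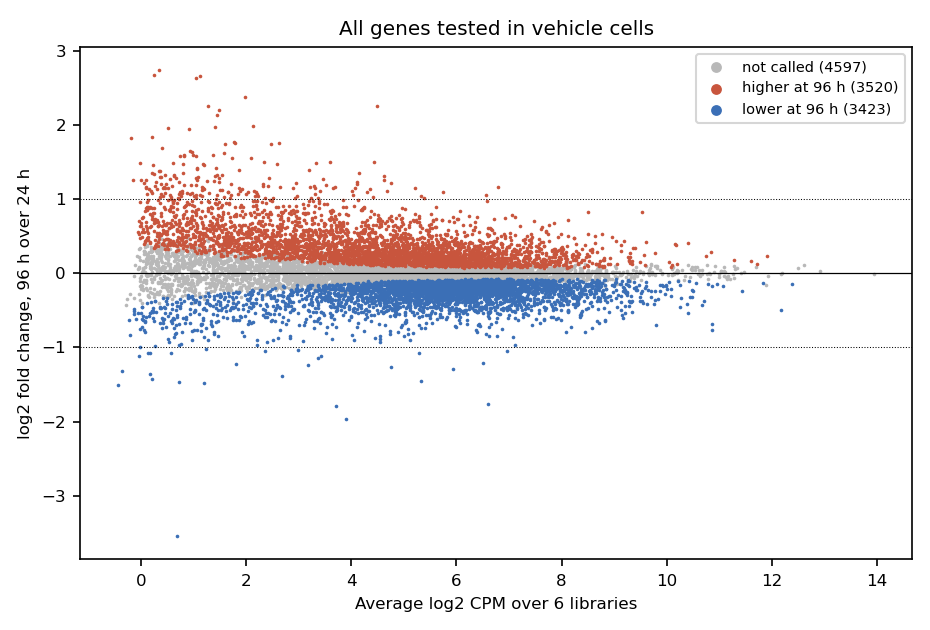
Each point is 1 of 11540 genes tested in vehicle cells, with the average log2 CPM of the 6 libraries on the horizontal axis and the log2 fold change of 96 h over 24 h on the vertical axis; called genes are coloured. Called genes lie on both sides of 0, and among genes that moved 2-fold or more 184 were higher and 28 lower at 96 h. For some of these the expression filter fixed the direction.

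The largest rise among genes averaging at least 3 log2 CPM was in ASS1, argininosuccinate synthase, the enzyme that starts arginine synthesis from citrulline. Its level was 7.66, 7.33 and 7.53 CPM at 24 h and 30.9, 45.6 and 32.4 CPM at 96 h for replicates 1 to 3. All libraries of 96 h lay far above all libraries of 24 h, and replicate 2 was the highest. The log2 fold change was 2.26 ± 0.14 (SE, n = 3 per time; edgeR adjusted p = 4.48e-06). The next largest rises were in RASGRP2 and KIF21B. RASGRP2, an exchange factor that activates the small GTPase RAP1, stood at 5.86, 5.68 and 6.17 CPM at 24 h and 19.1, 11.4 and 19.1 CPM at 96 h, a log2 fold change of 1.51 ± 0.18. KIF21B, a kinesin motor, stood at 10.4, 11.5 and 11.2 CPM at 24 h and 27.7, 39.6 and 27.4 CPM at 96 h, a log2 fold change of 1.501 ± 0.14. Both differed among the libraries of 96 h, with replicate 2 lowest for RASGRP2 and highest for KIF21B. SLC6A9, the glycine transporter GlyT1, rose by a log2 fold change of 1.40 ± 0.10, SOWAHD by 1.497 ± 0.11, C3orf20 by 1.35 ± 0.09 and KCNH8, a voltage-gated potassium channel, by 1.31 ± 0.12. ID2, which blocks the DNA binding of E proteins and so opposes the B-cell programme, rose from 6.07 ± 0.768 to 14.5 ± 3.18 CPM (mean ± SD, n = 3), a log2 fold change of 1.27 ± 0.15. CMAHP, the human pseudogene of a sialic acid hydroxylase, rose by 1.26 ± 0.04 and SPNS3, a member of the spinster transporter family, by 1.24 ± 0.10 on the log2 scale.

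The largest fall by the same rule was in BBC3. This gene, which encodes the death-promoting BH3 protein PUMA, stood at 22.6, 26.3 and 26.1 CPM at 24 h and 6.19, 6.60 and 6.66 CPM at 96 h. The 3 libraries of 96 h were close to each other and well below all 3 of 24 h, with a log2 fold change of -1.96 ± 0.07 (SE, n = 3 per time; edgeR adjusted p = 5.57e-07). GADD45A, a growth arrest and DNA damage gene, stood at 20.3, 23.2 and 20.4 CPM at 24 h and 5.71, 6.89 and 6.196 CPM at 96 h, a log2 fold change of -1.80 ± 0.08. CDKN1A, which encodes the cyclin-dependent kinase inhibitor p21, stood at 131, 163 and 159 CPM at 24 h and 45.1, 43.6 and 44.1 CPM at 96 h, a log2 fold change of -1.77 ± 0.07. TRIAP1, a small mitochondrial survival protein induced by p53, fell from 59.8 ± 1.34 to 21.9 ± 0.289 CPM and had the smallest standard error of these genes, with a log2 fold change of -1.45 ± 0.04. AEN, a p53-induced exonuclease, fell from 127 ± 14.3 to 54.9 ± 2.07 CPM, and PLK3, a stress-responsive polo-like kinase, fell from 14.8 ± 2.33 to 6.68 ± 0.373 CPM. The other large falls were in RGS1, a brake on chemokine receptor signalling (-1.29 ± 0.07 on the log2 scale), FOS, a part of the AP-1 transcription factor (-1.26 ± 0.16), SULF2, an extracellular heparan sulfatase (-1.23 ± 0.12), and FCRL4, an Fc receptor-like protein of memory B cells (-1.12 ± 0.06). The rule that chose these 10 falls and the 10 rises above required groups without overlap, as 65.5% of all genes tested had.

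**Figure D2:**
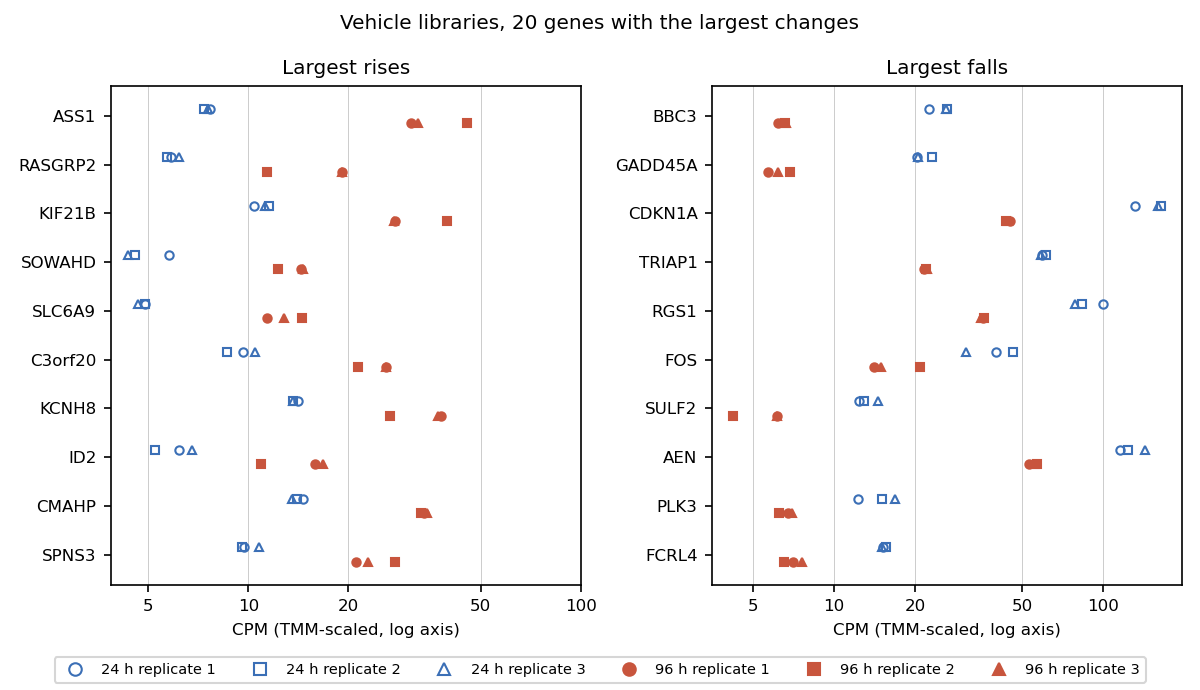
CPM in each of the 6 vehicle libraries (log axis) for the 10 genes with the largest rises and the 10 with the largest falls that met the level and no-overlap rule. As the rule requires, the 3 points of 96 h lie on one side of the 3 points of 24 h in each gene; ASS1 runs from 7.33 to 7.66 CPM at 24 h and from 30.9 to 45.6 CPM at 96 h.

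The other genes are described by lists of known function, with the members called in each direction read against the 30.5% higher and 29.7% lower among all genes tested. A list's median is that of the log2 fold changes of its tested members, to be set beside the median of 0.01 over all genes. The choice of the 2 members with the smallest p in each list favours genes whose times do not overlap. For them a lack of overlap is therefore a description and no further support, and 65.5% of all genes tested had it. Members named beyond these 2 were chosen after their values were seen.

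**Figure D3:**
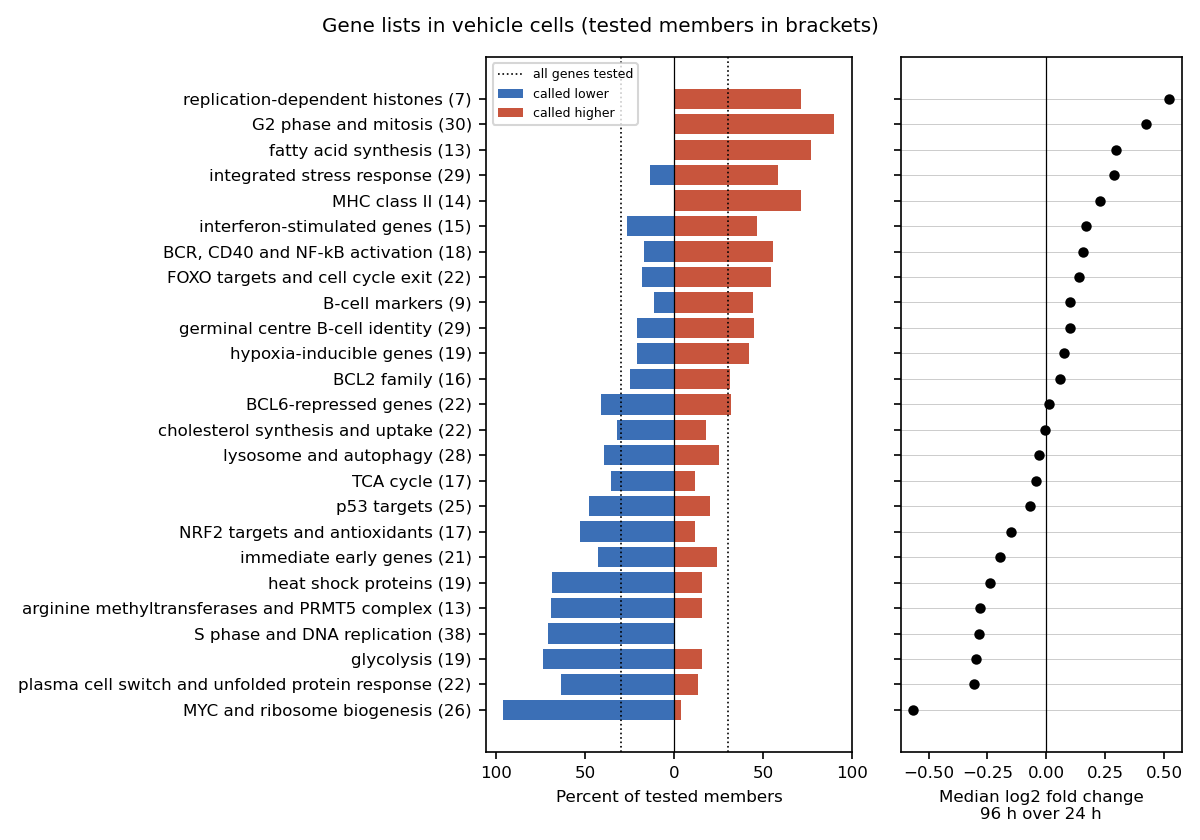
Percent of the tested members of each gene list that were called higher (red) or lower (blue) at 96 h than at 24 h in vehicle cells, with the number tested in brackets, dotted lines at the shares among all genes (30.5% and 29.7%) and, on the right, each list's median log2 fold change. Ribosome biogenesis, S phase, glycolysis and heat shock lists lean to lower, and mitosis, fatty acid synthesis and MHC class II lists lean to higher.

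The list of p53 targets held 5 of the 10 largest falls, but it did not move as a whole. Of 25 tested members of 29, 5 rose and 12 fell, leaving 8 uncalled, with a median of -0.07 that became -0.16 without the filter. The members that fell most were BBC3, CDKN1A, TRIAP1, FAS, SESN1, AEN and PLK3, all by more than 1 on the log2 scale. FAS, a death receptor, fell from 2.08 ± 0.333 to 0.835 ± 0.109 CPM, having passed the filter through its libraries of 24 h, and SESN1, a sestrin that restrains mTORC1, fell from 9.99 ± 2.42 to 3.82 ± 0.222 CPM. MDM2, the ubiquitin ligase that degrades p53, fell too, with a log2 fold change of -0.35 ± 0.04, as did BAX, a pore-forming death protein, with -0.23 ± 0.04. In the other direction DDB2, a sensor of ultraviolet damage, rose by 0.35 ± 0.04 and POLH, a translesion polymerase, by 0.43 ± 0.05. The mean of the list was -0.40, -0.44 and -0.37 log2 CPM relative to 24 h in replicates 1 to 3 of 96 h, so the 3 libraries were alike. This mean lies below the median because a few members fell far.

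In the BCL2 family, which decides whether mitochondria release death signals, members were called about as often as all genes tested. Of 16 tested members, 5 rose and 4 fell, leaving 7 uncalled, with a median of 0.06. These counts are near the shares of 30.5% higher and 29.7% lower among all genes, so they do not set the family apart. The falls were in the death-promoting BBC3, PMAIP1 (-0.41 ± 0.06 on the log2 scale), BIK (-0.34 ± 0.08) and BAX. The rises were in the survival genes BCL2, MCL1, BCL2L1 and BCL2L2 and in the death effector BAK1 (0.14 ± 0.03). BCL2 stood at 199, 200.3 and 199.6 CPM at 24 h and 247, 248 and 253 CPM at 96 h, a log2 fold change of 0.32 ± 0.03 (edgeR adjusted p = 1.82e-05), with no overlap between the times. MCL1 rose by 0.22 ± 0.03, BCL2L1 by 0.30 ± 0.03 and BCL2L2 by 0.33 ± 0.10 on the log2 scale.

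Cell cycle inhibitors did not move together. While CDKN1A fell, CDKN1B, which encodes the inhibitor p27 and is a FOXO target, stood at 13.7, 12.9 and 14.3 CPM at 24 h and 28.2, 27.5 and 27.8 CPM at 96 h. All 3 libraries of 96 h were at about the same level and above all of 24 h, with a log2 fold change of 1.03 ± 0.05 (SE, n = 3 per time; edgeR adjusted p = 1.26e-06). Of 22 tested genes on the list of FOXO targets and cell cycle exit, 12 rose and 4 fell, leaving 6 uncalled, with a median of 0.14. CCNG2, an atypical cyclin of resting cells, rose by 0.72 ± 0.05, SESN3, a sestrin, by 0.81 ± 0.11, and CDKN2C, which encodes the inhibitor p18, by 0.52 ± 0.05. On the same list SESN1, ARRDC3 (-1.07 ± 0.17), an arrestin-domain protein, S1PR1 (-0.59 ± 0.13), the receptor for sphingosine 1-phosphate, and FOXO1 itself (-0.21 ± 0.04) fell.

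Genes of MYC-driven growth and ribosome biogenesis fell almost without exception, while the MYC transcript rose. Of 26 tested members, 1 rose and 25 fell, against 29.7% lower among all genes, with a median of -0.56. The single member that rose was MYC, at 299, 297 and 286 CPM at 24 h and 323, 374 and 332 CPM at 96 h. Its 3 libraries of 96 h lay above the 3 of 24 h, with a log2 fold change of 0.22 ± 0.05 (edgeR adjusted p = 0.00491). PES1, a factor in maturation of the large ribosomal subunit, stood at 173, 176 and 172 CPM at 24 h and 92.1, 101 and 95.2 CPM at 96 h, a log2 fold change of -0.86 ± 0.04 (adjusted p = 8.9e-07). NOP16, a nucleolar protein, fell from 79.2 ± 0.92 to 47.9 ± 1.19 CPM. The libraries did not overlap for either gene. Further members with falls of more than 0.6 on the log2 scale included SRM, the spermidine synthase (-0.85 ± 0.05), NCL, nucleolin (-0.68 ± 0.05), ODC1, ornithine decarboxylase (-0.66 ± 0.09), and POLR1A, the largest subunit of RNA polymerase I (-0.63 ± 0.03). Smaller falls were those of NPM1, nucleophosmin (-0.53 ± 0.07), and FBL, the methyltransferase of small nucleolar ribonucleoproteins (-0.29 ± 0.06). The list's mean in replicates 1 to 3 of 96 h was -0.58, -0.45 and -0.59 log2 CPM relative to 24 h. The 25 falls held under every alternative analysis tried, as did the rise of MYC.

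The promoter of PES1 is shown because it was the member with the smallest p that carries the E-box CACGTG, the letters that MYC and its partner MAX bind. It comes from RefSeq on GRCh38.p14 (chr22:30591861-30592160, minus strand) and runs from 250 bases before to 50 after the start of the gene, 5′ to 3′, with the E-box in capitals.
PES1: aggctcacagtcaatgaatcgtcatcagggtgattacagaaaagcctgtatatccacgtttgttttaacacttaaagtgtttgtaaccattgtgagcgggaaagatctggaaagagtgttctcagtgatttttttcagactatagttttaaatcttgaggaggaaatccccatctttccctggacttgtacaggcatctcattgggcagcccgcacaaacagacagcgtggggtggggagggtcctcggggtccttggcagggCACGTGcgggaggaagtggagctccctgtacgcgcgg
CACGTG, which reads the same on both strands, was found in 7 of the 20 members with a promoter in the table (35%), against 7.43% of all 27305 promoters and 10.5% of the 8220 promoters of genes tested. A match is a description of the letters in this window and does not show that a factor binds there.

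DNA replication genes fell. Of 38 tested members of the S phase list, 0 rose and 27 fell, leaving 11 uncalled, with a median of -0.28. CDC6, which loads the replicative helicase at origins, stood at 106, 109 and 106 CPM at 24 h and 64.3, 73.7 and 62.6 CPM at 96 h. Replicate 2 was the highest of the libraries of 96 h and still below all libraries of 24 h, and the log2 fold change was -0.68 ± 0.06 (SE, n = 3 per time; edgeR adjusted p = 1.16e-05). UHRF1, which maintains DNA methylation at replication forks, fell from 125 ± 1.54 to 93.1 ± 3.51 CPM. The helicase subunits MCM2 to MCM7 all fell, from -0.24 ± 0.06 for MCM2 to -0.62 ± 0.07 for MCM4 on the log2 scale. Also lower were PCNA, the sliding clamp (log2 fold change -0.59 ± 0.07), CCNE2, a cyclin of S phase entry (-0.67 ± 0.08), and RRM2, a subunit of ribonucleotide reductase (-0.46 ± 0.09). E2F1 (0.00 ± 0.05), TK1 (-0.05 ± 0.05) and CDT1 (0.06 ± 0.07) were not called. The list's mean was -0.36 and -0.36 log2 CPM relative to 24 h in replicates 1 and 3 of 96 h and -0.14 in replicate 2. Without replicate 2 of 96 h, 34 of the 38 were lower and the median was -0.35.

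Genes of G2 phase and mitosis rose. Of 30 tested members, 27 rose and 0 fell, leaving 3 uncalled, against 30.5% higher among all genes, with a median of 0.42. CENPE, a kinetochore motor, stood at 28.0, 25.0 and 25.5 CPM at 24 h and 40.8, 46.1 and 41.0 CPM at 96 h, a log2 fold change of 0.70 ± 0.06 (SE, n = 3 per time; edgeR adjusted p = 1.57e-05). PRC1, a cross-linker of the central spindle, stood at 103, 106 and 107 CPM at 24 h and 149, 166 and 147 CPM at 96 h, a log2 fold change of 0.54 ± 0.05. In both genes replicate 2 was the highest library of 96 h and the times did not overlap. Other members with large rises were KIF20A, a kinesin of cytokinesis (0.72 ± 0.08 on the log2 scale), CCNB2, a mitotic cyclin (0.70 ± 0.09), and PLK1, the main mitotic polo-like kinase (0.62 ± 0.06). CDC20, the activator of the anaphase-promoting complex, rose by 0.53 ± 0.05 and CDK1, the mitotic cyclin-dependent kinase, by 0.45 ± 0.08. MAD2L1 (-0.06 ± 0.08), KIF11 (0.01 ± 0.07) and CCNA2 (0.18 ± 0.09) were not called. Relative to 24 h the list's mean was 0.33 and 0.32 log2 CPM in replicates 1 and 3 of 96 h and 0.59 in replicate 2. Without replicate 2, 27 of 30 were still higher, 2 were lower and the median was 0.32.

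**Figure D4:**
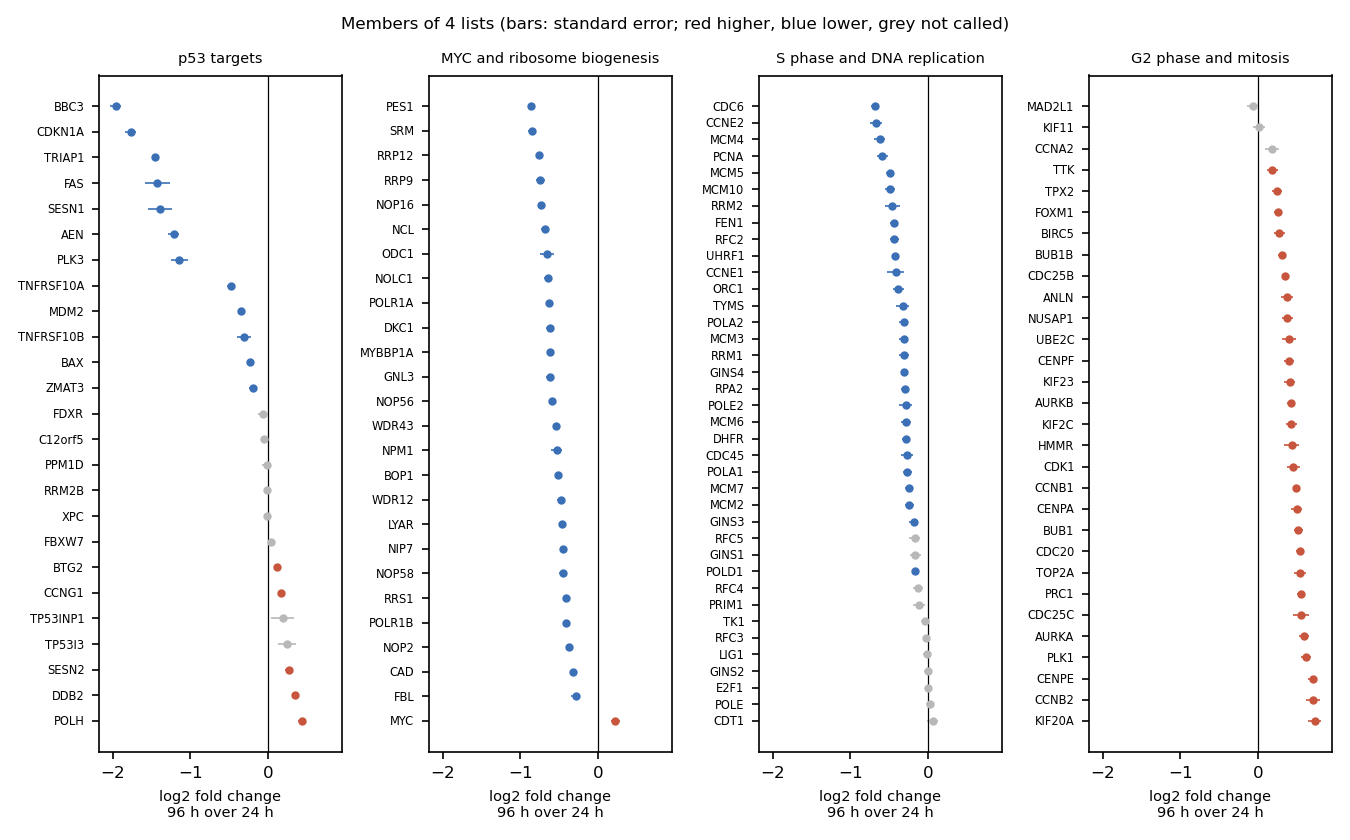
Log2 fold change (96 h over 24 h) with its standard error for the tested members of 4 gene lists in vehicle cells; red points were called higher, blue lower, and grey were not called. Ribosome biogenesis members lie below 0 except MYC, S phase members lie near or below 0, 27 of 30 mitotic members were called higher, and p53 targets run from BBC3 at -1.96 to POLH at 0.43.

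Promoters of 3 of these cell cycle genes are shown for motifs known from genes of these phases: an E2F site in CDC6, and the CCAAT box and the cell cycle genes homology region (CHR) of mitotic genes in PRC1 and CDC20. They were chosen as members with the smallest p that hold the motif, and come from RefSeq on GRCh38.p14 with the same window and the motifs, on either strand, in capitals. CDC6 lies at chr17:40287629-40287928, plus strand, PRC1 at chr15:90994486-90994785, minus strand, and CDC20 at chr1:43358731-43359030, plus strand.
CDC6: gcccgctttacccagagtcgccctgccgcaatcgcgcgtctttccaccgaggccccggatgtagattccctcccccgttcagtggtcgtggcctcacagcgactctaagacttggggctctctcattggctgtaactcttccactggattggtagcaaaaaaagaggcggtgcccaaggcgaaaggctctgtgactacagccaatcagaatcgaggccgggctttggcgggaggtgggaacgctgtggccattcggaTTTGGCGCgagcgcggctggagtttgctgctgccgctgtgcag
PRC1: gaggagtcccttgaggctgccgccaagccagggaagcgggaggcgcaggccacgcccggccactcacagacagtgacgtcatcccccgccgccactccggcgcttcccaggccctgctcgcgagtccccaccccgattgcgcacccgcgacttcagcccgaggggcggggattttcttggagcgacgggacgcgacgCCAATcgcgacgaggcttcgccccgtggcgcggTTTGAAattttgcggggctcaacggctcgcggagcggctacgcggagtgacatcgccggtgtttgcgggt
CDC20: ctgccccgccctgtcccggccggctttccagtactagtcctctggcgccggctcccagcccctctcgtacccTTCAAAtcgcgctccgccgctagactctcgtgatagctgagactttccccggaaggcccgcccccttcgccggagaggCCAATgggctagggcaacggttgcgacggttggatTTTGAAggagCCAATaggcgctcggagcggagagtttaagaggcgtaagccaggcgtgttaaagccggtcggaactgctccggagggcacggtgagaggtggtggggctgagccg
The E2F letters TTTGGCGC were in 7 of 32 S phase promoters (21.9%), against 0.659% of all promoters and 1.22% of those of genes tested. CCAAT was in 18 of 24 mitotic promoters (75%), against 35.7% and 37.9%, and the CHR letters TTTGAA were in 15 of 24 (62.5%), against 15.4% and 9.68%. Both strands were searched, and the motifs share no letters in the promoters shown.

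Replication-dependent histone genes were measured only in part, since most of their mRNA has no poly(A) tail and the libraries were selected on poly(A). Of 15 listed genes 7 passed the filter, of which 5 rose and 2 were not called. HIST1H2AC rose from 5.72 ± 0.225 to 9.20 ± 0.727 CPM and HIST1H3H from 2.16 ± 0.138 to 3.40 ± 0.268 CPM. Near-identical copies make values of single histone genes uncertain, and a gene that passed the filter only through its libraries of 96 h had to be higher there.

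Among stress programmes, most members of the integrated stress response list, which ATF4 drives, rose, and most heat shock genes fell. Of 29 tested members of the integrated stress response list, 17 rose and 4 fell, leaving 8 uncalled, with a median of 0.29. CTH, which makes cysteine from cystathionine, stood at 12.5, 12.3 and 12.7 CPM at 24 h and 25.5, 32.0 and 25.7 CPM at 96 h. The times did not overlap, and the log2 fold change was 1.14 ± 0.09 (SE, n = 3 per time; edgeR adjusted p = 8.62e-06). AARS, the alanyl-tRNA synthetase, rose from 446 ± 6.12 to 601 ± 28.9 CPM. ATF3, a stress-induced transcription factor, rose by 1.09 ± 0.16, CHAC1, which breaks down glutathione, by 0.98 ± 0.14, TRIB3, a pseudokinase, by 0.89 ± 0.09, and PSAT1 and PHGDH, enzymes of serine synthesis, by 0.60 ± 0.10 and 0.49 ± 0.07 on the log2 scale. ATF4 itself (0.02 ± 0.05) was not called. The 4 falls were in the amino acid transporters SLC3A2 (-0.38 ± 0.05) and SLC7A1 (-0.15 ± 0.05), in DDIT3, which encodes the death-promoting factor CHOP (-0.33 ± 0.06), and in PPP1R15A, whose product helps to end the response by dephosphorylating eIF2α (-0.35 ± 0.03). The list's mean relative to 24 h was 0.19, 0.44 and 0.23 log2 CPM in replicates 1 to 3 of 96 h. Without replicate 2, 17 were higher and 8 lower, with a median of 0.24. The amino acid response element TGATGNAA was in 5 of 21 promoters of the list (23.8%), against 3.67% of all promoters and 1.69% of those of genes tested. Its carriers included SLC3A2, which fell, and CHAC1, which rose, so a match does not give the direction.

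HSPA5, the endoplasmic reticulum chaperone BiP and the classic readout of the unfolded protein response, stood at 444, 445 and 438 CPM at 24 h and 253, 260.3 and 250.3 CPM at 96 h. The 3 libraries of each time were close together, and the log2 fold change was -0.80 ± 0.03 (edgeR adjusted p = 5.72e-07). CALR, calreticulin, fell from 694 ± 6.94 to 456 ± 8.82 CPM. Of 22 tested genes on the list of plasma cell switch and unfolded protein response, 3 rose and 14 fell, leaving 5 uncalled, with a median of -0.31. Those that rose were IRF4 (0.52 ± 0.05), EDEM1 (0.44 ± 0.03) and DNAJB9 (0.39 ± 0.06), of which IRF4 is a transcription factor of B-cell activation and plasma cells. XBP1 (-0.04 ± 0.08), a transcription factor of the same response, and HSP90B1 (-0.04 ± 0.03), the chaperone GRP94, were not called. In the cytosol, 13 of 19 tested heat shock genes fell and 3 rose, with a median of -0.24. HSPA8, the constitutive HSC70, fell from 2359.8 ± 71.9 to 1389.8 ± 61.0 CPM and HSP90AA1 from 1413 ± 27.3 to 1032 ± 39.6 CPM, while HSPA1B (0.65 ± 0.07), HSPB1 (0.65 ± 0.06) and DNAJB4 (0.71 ± 0.09) rose. Of 17 tested NRF2 targets and antioxidant genes, 2 rose and 9 fell, leaving 6 uncalled. PRDX1, a peroxiredoxin, fell from 319 ± 6.10 to 238 ± 6.83 CPM and FTL, the ferritin light chain, from 993 ± 27.2 to 745 ± 8.38 CPM. SLC7A11, the cystine transporter, which is on the amino acid response list too, rose by 0.64 ± 0.06.

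Glycolytic enzymes fell while genes of fatty acid synthesis rose. Of 19 tested glycolysis genes, 3 rose and 14 fell, leaving 2 uncalled, with a median of -0.30. LDHA, lactate dehydrogenase A, stood at 1109.6, 1115 and 1093 CPM at 24 h and 658, 742 and 645 CPM at 96 h, with no overlap and a log2 fold change of -0.70 ± 0.05 (SE, n = 3 per time; edgeR adjusted p = 7.14e-06). PGAM1, phosphoglycerate mutase, fell from 147 ± 2.22 to 106 ± 2.54 CPM. The members that rose were ALDOC (0.21 ± 0.04), ENO2 (0.44 ± 0.08) and the lactate exporter SLC16A3 (0.54 ± 0.13). Of 13 tested genes of fatty acid synthesis, 10 rose and 0 fell, leaving 3 uncalled, with a median of 0.30. SREBF1, the transcription factor that drives the pathway, stood at 129.6, 136 and 138 CPM at 24 h and 215, 209.5 and 234 CPM at 96 h, a log2 fold change of 0.71 ± 0.05. ACSS2, which makes acetyl-CoA from acetate, rose by 1.13 ± 0.13, MID1IP1, an activator of acetyl-CoA carboxylase, by 1.12 ± 0.14, SCD, the stearoyl-CoA desaturase, by 0.41 ± 0.05, FASN, fatty acid synthase, by 0.30 ± 0.04 and FADS1, a desaturase of polyunsaturated fatty acids, by 0.30 ± 0.03. Cholesterol genes showed no such lean: of 22 tested, 4 rose and 7 fell, leaving 11 uncalled. FDPS, farnesyl diphosphate synthase, rose by 0.27 ± 0.03 on the log2 scale. When scaled by library size alone, 8 cholesterol genes were higher and 5 lower, so the balance of that list depends on the scaling.

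Hypoxia-inducible genes were mixed. Of 19 tested, 8 rose and 4 fell, leaving 7 uncalled. VEGFA, the angiogenic growth factor, stood at 87.4, 91.7 and 92.3 CPM at 24 h and 145, 163 and 149 CPM at 96 h, a log2 fold change of 0.75 ± 0.05 (edgeR adjusted p = 4.03e-06), and the times did not overlap. HK2, the hexokinase that starts glycolysis, moved the other way, from 139 ± 2.94 to 99.2 ± 6.16 CPM. The glucose transporter SLC2A1 (-0.05 ± 0.03) was not called. Of 17 tested genes of the TCA cycle, 2 rose and 6 fell, leaving 9 uncalled, with IDH3A (-0.35 ± 0.04) and MDH2 (-0.23 ± 0.03) among the falls. Of 28 tested lysosome and autophagy genes, 7 rose and 11 fell, leaving 10 uncalled. PSAP, the precursor of the saposins, fell from 396 ± 10.5 to 268 ± 18.5 CPM, while GABARAPL1, an autophagosome protein, rose by 0.78 ± 0.14 on the log2 scale. The medians of the TCA and lysosome lists, -0.04 and -0.03, became 0.00 and 0.01 with library size alone as scaling.

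All 29 listed genes of germinal centre identity passed the filter, and each moved by less than 1 on the log2 scale. Of the 29, 13 rose and 6 fell, leaving 10 uncalled, with a median of 0.10 and a range from -0.42 for SERPINA9 to 0.58 for LMO2. BCL6, the repressor that sets the germinal centre programme, stood at 435, 431 and 435 CPM at 24 h and 471, 459.8 and 463 CPM at 96 h. Its log2 fold change was 0.10 ± 0.03 (SE, n = 3 per time; edgeR adjusted p = 0.0136). That call was lost without replicate 2 of 24 h (adjusted p = 0.0578), without replicate 3 of 24 h (0.05002) and without replicate 1 of 96 h (0.0557), and over all alternatives its adjusted p ran from 0.000125 to 0.0578 and the log2 fold change from 0.09 to 0.15. GCET2 and LRMP, both germinal centre markers, rose from 167 ± 2.52 to 248 ± 18.2 CPM and from 1007 ± 6.67 to 1313 ± 12.7 CPM. Of the 9 B-cell markers, 4 rose and 1 fell, leaving 4 uncalled. MS4A1, which encodes CD20, rose from 3561 ± 4.51 to 4187 ± 182 CPM and EBF1, a lineage transcription factor, from 16.7 ± 0.173 to 20.2 ± 0.976 CPM, and PAX5 (-0.09 ± 0.03) fell. Without replicate 2 of 96 h, 19 of the 29 identity genes were higher and 7 lower, and 6 of the 9 markers were higher and 2 lower.

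Genes known to be repressed by BCL6 went both ways: of 22 tested, 7 rose and 9 fell, leaving 6 uncalled, with a median of 0.01 that ran from -0.06 to 0.05 over the alternatives. CDKN1A, CCR6 (-0.77 ± 0.09) and S1PR1 were among the falls, and ID2, CDKN1B and ARID3A (0.56 ± 0.13) among the rises. Targets of B-cell receptor, CD40 and NF-kB signalling rose more often than they fell: of 18 tested, 10 rose and 3 fell, leaving 5 uncalled. BIRC3, an inhibitor of apoptosis, rose from 174 ± 6.68 to 251 ± 1.97 CPM (log2 fold change 0.53 ± 0.03) and TRAF1, an adaptor of tumour necrosis factor receptors, by 0.73 ± 0.09. CD83, an activation marker, fell from 224 ± 13.1 to 159 ± 4.34 CPM.

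Immediate early genes, which respond within minutes to receptor signals and to handling, were split. Of 21 tested, 5 rose and 9 fell, leaving 7 uncalled, with a median of -0.20. EGR1, a zinc finger factor downstream of ERK, stood at 166, 190.1 and 148 CPM at 24 h and 78.8, 84.6 and 80.7 CPM at 96 h. The times did not overlap, and the log2 fold change was -1.05 ± 0.08 (edgeR adjusted p = 7.14e-06). FOS, IER5 (-0.81 ± 0.06), EGR2 (-0.74 ± 0.06) and JUN (-0.72 ± 0.09) fell as well. NR4A3, an orphan nuclear receptor, rose by 0.90 ± 0.14, JUNB by 0.55 ± 0.07 and IER2 by 0.39 ± 0.05.

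Most of the MHC class II genes, which present antigen to T cells, rose. Of 14 tested, 10 rose and 0 fell, leaving 4 uncalled, against 30.5% higher among all genes, with a median of 0.23. CIITA, the master activator of these genes, stood at 53.6, 52.9 and 54.4 CPM at 24 h and 88.0, 72.5 and 92.3 CPM at 96 h, a log2 fold change of 0.65 ± 0.07 (edgeR adjusted p = 7.33e-05). HLA-DRB5 rose from 134 ± 1.68 to 172 ± 8.62 CPM and HLA-DQA1 from 334 ± 6.67 to 415 ± 12.4 CPM, values that are uncertain because HLA genes are near-identical copies of each other and differ from the reference in any given line. CD74, the invariant chain, rose by 0.17 ± 0.04. The list's mean was 0.29, 0.13 and 0.27 log2 CPM relative to 24 h in replicates 1 to 3 of 96 h, and without replicate 2 the count was 13 of 14.

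Only 15 of 28 listed interferon-stimulated genes passed the filter, and they were mixed: 7 rose and 4 fell, leaving 4 uncalled. IFIT2, an antiviral protein that binds RNA, had the largest change, at 0.797, 0.837 and 0.803 CPM at 24 h and 4.15, 2.05 and 4.02 CPM at 96 h. It passed the filter through its libraries of 96 h, so its direction was fixed by the filter. OAS3, a sensor of double-stranded RNA, fell from 48.3 ± 1.07 to 33.9 ± 4.03 CPM. ISG15 (0.53 ± 0.10) and STAT2 (0.54 ± 0.09) rose. The list's mean relative to 24 h was 0.28, 0.01 and 0.24 log2 CPM in replicates 1 to 3 of 96 h. Its median was 0.17. Without replicate 2 of 96 h, 8 were higher and 4 lower, with a median of 0.22.

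PRMT5, the arginine methyltransferase that the drug arm of the study inhibits, was lower in vehicle cells at 96 h than at 24 h. It stood at 132, 134 and 125 CPM at 24 h and 90.4, 94.6 and 85.2 CPM at 96 h, with no overlap and a log2 fold change of -0.53 ± 0.04 (SE, n = 3 per time; edgeR adjusted p = 1.28e-05). WDR77, its obligate partner MEP50, fell from 154 ± 1.44 to 121 ± 3.69 CPM, a log2 fold change of -0.35 ± 0.03. RIOK1, an adaptor that brings substrates to PRMT5, fell from 122.7 ± 2.17 to 94.0 ± 3.49 CPM, and CLNS1A, the adaptor for spliceosomal Sm proteins, fell with a log2 fold change of -0.31 ± 0.05. Of 13 tested genes on the list of arginine methyltransferases and the PRMT5 complex, 2 rose and 9 fell, leaving 2 uncalled, with a median of -0.28. PRMT1, the main enzyme of asymmetric methylation, fell as well (-0.28 ± 0.03), while PRMT2 (0.17 ± 0.06) rose and CARM1 (0.08 ± 0.04) was not called. The other rise was in FBXO11 (0.14 ± 0.04), which is on the list but is an F-box protein rather than an established arginine methyltransferase.

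Among genes averaging at least 3 log2 CPM, those that varied most among the 3 libraries of 96 h were LGALS1, TTYH3, LAMA5, PLD4 and SPON1, and in each of them replicate 2 was the lowest of the 3. LGALS1, a secreted galectin, stood at 28.9, 25.0 and 27.1 CPM at 24 h and 63.5, 34.4 and 64.9 CPM at 96 h, and TTYH3, an anion channel, at 12.99, 11.8 and 13.2 CPM at 24 h and 25.5, 14.4 and 28.2 CPM at 96 h. In both, replicates 1 and 3 were close to each other and replicate 2 lay between them and the libraries of 24 h. PLD4, an exonuclease of endolysosomes, behaved alike, at 5.59, 5.68 and 6.31 CPM at 24 h and 12.8, 7.86 and 13.6 CPM at 96 h. LAMA5, a laminin chain, stood at 10.6, 8.70 and 11.1 CPM at 24 h and 15.3, 8.73 and 15.4 CPM at 96 h and overlapped between the times. It was not called (log2 fold change 0.40 ± 0.19, edgeR adjusted p = 0.0894), but was called without replicate 2 of 96 h, with a log2 fold change of 0.59, and over the alternatives its adjusted p ran from 4.09e-10 to 0.327. SPON1, a secreted matrix protein, stood at 13.5, 11.2 and 12.9 CPM at 24 h and 15.5, 8.94 and 14.4 CPM at 96 h and was not called (log2 fold change 0.08 ± 0.17, adjusted p = 0.705). Its log2 fold change was 0.28 and called without replicate 2 of 96 h, and -0.10 and not called without replicate 1, and over the alternatives its adjusted p ran from 8.22e-05 to 0.990. Across genes, the deviation of replicate 2 from the mean of 96 h had a Spearman correlation of -0.28 with the GC content of the gene and that of replicate 3 one of 0.38, as a description over 11115 genes. Whether GC content had a part in the values of replicate 2 was not tested.

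**Figure D5:**
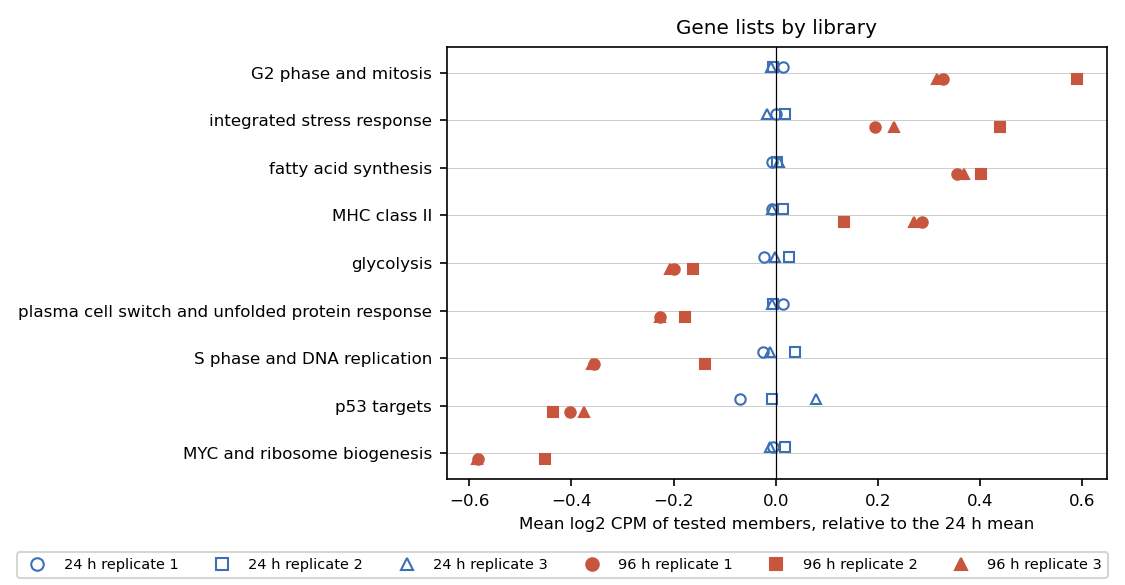
Mean log2 CPM of the tested members of 9 gene lists in each of the 6 vehicle libraries, relative to the mean of the 3 libraries of 24 h. The 24 h libraries lie close to 0; in replicate 2 of 96 h the S phase mean is -0.14 and the mitosis mean 0.59, against -0.36 and 0.32 in replicate 3.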

How the data were processed

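Poly(A) RNA of SUDHL6 cells was sequenced by the study, and the 6 vehicle samples were analysed here. The deposited values are raw counts per gene symbol, which the authors placed in 1 table for each time. STAR, HTSeq and edgeR with hg19 (GRCh37) are named per the submitters' processing notes. Their versions, the annotation and the strand setting are not given in the sources used. Without the strand, antisense or overlapping genes cannot be separated. The authors' own comparison tables were not used. All count columns matched a sample by name.

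The tables were joined by symbol, and genes with a CPM of at least 1 in at least 3 of 6 libraries were fitted with edgeR 4.0.16 (R 4.3.3): TMM scaling, glmQLFit and glmQLFTest, two-sided, Benjamini-Hochberg adjustment over all genes tested, threshold 0.05. Printed CPM follow TMM scaling. The SE is the log2 fold change over the root of the F statistic. Total counts of 48.5 to 547.9 M (mega) per library let 1 count weigh 0.0018 to 0.0206 CPM. Every pair of replicates differed by more than sampling noise, so none was merged. The overall biological coefficient of variation was 4.30%, with 2.38% within 24 h and 5.58% within 96 h. The fit was tested on simulated data with known changes.

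Genes named are the 10 largest called rises and the 10 largest called falls among genes averaging at least 3 log2 CPM, without overlap and without LOC symbols, 5 genes chosen by name (PRMT5, WDR77, BCL6, MYC and CDKN1A), the 2 members of each of 27 lists with the smallest p, and the 5 genes, also averaging at least 3 log2 CPM, that varied most within 96 h. Some genes that this rule selects are not reported here. Members and lists were chosen with earlier results of these data known, and no list test was made. The list of mitochondrially encoded transcripts matched no symbol and was not analysed here. Gene length and GC content came from GENCODE 29 by symbol (96.3% of genes matched), and promoters from RefSeq (GRCh38.p14). Alternatives were library size scaling, median-ratio size factors, DESeq2 1.42.0, voom with sample weights (limma 3.58.1), other filters, thinning of the deep library, a fit of all 12 libraries, a replicate block, and each library left out.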

Additional observations from a re-analysis of the deposited data

How the results depend on the processing

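The number of genes called lay within 1.5 times of 6943 under each alternative run. It was 6930 with library size alone, where 60.1% of the called genes were higher against 50.7% with TMM scaling, 6952 with median-ratio size factors, 6729 with DESeq2, 8571 with voom and sample weights, 7531 without a filter, 7491 with filterByExpr, 5952 with a minimum of 5 CPM, 6705 with the deep library thinned and 6085 in a fit of all 12 libraries. Leaving out each library gave 5635 (without replicate 1 of 96 h) to 8212 (without replicate 2 of 96 h). The labels do not say whether the replicate numbers pair the samples. Same-numbered deviations from the group means correlated at -0.02, 0.27 and 0.23, and not every sample correlated best with its own number. These correlations cannot decide the question, since the deviations within a group depend on each other. With the replicate number as a block, 7302 genes were called. The log2 fold change of SPON1 turned from 0.08 to -0.10 without replicate 1 of 96 h and was called in neither; with sample weights it was 0.28 and called. LAMA5 was also called with sample weights (0.58), without a filter (0.39) and with the replicate block (0.37). Together with BCL6 these were the named genes whose call or direction changed. The depth of at least 48.5 M counts per library and the 3 libraries of each time limit the precision. Of 400 list medians under the alternatives, 339 moved by less than the spread between replicates, and 61 by more. The sign changed under some alternative for the cholesterol, TCA cycle, lysosome and BCL6-repressed lists, whose medians were near 0. Of 800 counts of called list members, 44 moved by more than 1.5 times. The voom weight of replicate 2 of 96 h was 0.206, against 1.23 to 1.89 for the others.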

Other observations

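Gene families were grouped by the start of their symbols, and some of their members, such as POLR1A and KIF20A, are on the lists above. For some families any symbol with that start was taken, so other genes may be among them. The families were chosen after the data were seen. Their counts are to be read against the 30.5% higher and 29.7% lower among all genes tested. Of 94 small nucleolar RNA symbols tested, which guide the chemical modification of ribosomal RNA, 85 were lower at 96 h, 0 were higher and the median log2 fold change was -0.60. These RNAs are short and lack a poly(A) tail, and most lie within introns of host genes, so reads of a host transcript cannot be told apart from them here. SNORD74, at 1.36 ± 0.0827 CPM at 24 h and 0.539 ± 0.0316 CPM at 96 h, passed the filter through its libraries of 24 h, which fixed its direction. How many of the 94 symbols did so was not counted. Of 15 subunits of RNA polymerases I and III, which transcribe ribosomal and transfer RNA, 11 were lower and 0 higher, and of 33 DEAD box RNA helicases 26 were lower and 3 higher. The proteins of the cytosolic ribosome, counted with paralogs such as RPS27L and RPL7L1, did not share this: of 81 tested, 10 were lower and 2 higher, with a median of 0.01. Among them RPL36A fell from 28.6 ± 0.931 to 15.7 ± 0.0675 CPM and RPS26 from 195 ± 5.18 to 132 ± 7.33 CPM, with uncertainty from their processed copies in the genome. Proteins of the mitochondrial ribosome were lower in 45 of 75 cases and higher in 2, for example MRPL4, which fell from 138 ± 2.69 to 99.9 ± 4.90 CPM.

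The 7 subunits of the cytosolic chaperonin CCT that the symbol search matched were all lower, with a median of -0.37. CCT folds actin and tubulin, and its subunit CCT6A was left out by the search. Of 39 symbols that start as those of proteasome subunits do, 33 were lower and 2 higher. PSMC4, an ATPase of the proteasome cap, fell from 143 ± 2.64 to 104 ± 1.08 CPM, and PSMD1 fell from 183 ± 3.77 to 125 ± 5.81 CPM. Nuclear pore proteins were lower in 15 of 21 cases and higher in 3. In the other direction, 195 of 424 zinc finger genes with ZNF symbols were higher and 49 lower, with a median of 0.14, and 16 of 30 kinesins were higher and 4 lower. KIF14, a kinesin of cytokinesis that was on no list, rose from 26.6 ± 1.23 to 46.6 ± 4.21 CPM. Of 198 solute carriers, 65 were higher and 63 lower, which is near the shares among all genes. SLC25A27, a mitochondrial carrier also known as UCP4, rose from 261 ± 12.2 to 462 ± 28.6 CPM and SLC38A5, a glutamine and glycine transporter, fell from 106 ± 3.17 to 77.1 ± 1.43 CPM. Among genes of low level, EFR3B, a membrane anchor of phosphatidylinositol 4-kinase, fell from 4.29 ± 0.596 to 0.369 ± 0.131 CPM, a log2 fold change of -3.54 ± 0.18, and CDHR1, a cadherin-related protein, rose from 0.24 ± 0.0854 to 1.56 ± 0.208 CPM, a log2 fold change of 2.67 ± 0.22. Both passed the filter through the libraries of one time, which fixed their direction.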
